A study of Mus musculus with 32 samples.

Results

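Small nucleolar RNAs (snoRNAs) and small Cajal body RNAs (scaRNAs) were followed through 15 RADICL-seq libraries of mouse cells, which pair a tag of an RNA with a tag of the chromatin it was ligated to. The members were all RNA genes whose symbol starts with Snord (box C/D snoRNAs), Snora (box H/ACA snoRNAs) or Scarna (Cajal body RNAs), Snord118 excepted, that had at least 1 interaction in any library. This gave 93 of the 17784 transcripts with interactions, namely 62 C/D, 24 H/ACA and 7 Cajal body RNAs, and together they held 28818 interactions. The gene annotation lists 149 genes of these names, and 56 of them were in no library. The members were very unequal: the median member had 152 interactions in all libraries together, and the 3 most captured members held 32% of the total.

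Box C/D RNAs carry short C and D boxes near their ends, bind fibrillarin and Nop58, and guide methylation of riboses in ribosomal RNA, whereas box H/ACA RNAs end shortly after an ACA, bind dyskerin and guide pseudouridylation. Both kinds work in the nucleolus, where ribosomal RNA is made, and most mammalian members are cut out of introns of host genes and trimmed back to their protein-protected ends. Cajal body RNAs carry C and D boxes, H and ACA boxes or both, but modify spliceosomal RNAs, and those of the H/ACA kind are held in Cajal bodies by a CAB box.

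The cells were mESC R08, a mouse embryonic stem cell line, and Oli-neu, a line of mouse oligodendrocyte progenitors (mOPC). The mESC libraries were 3 after fixation with 1% formaldehyde (1FA, the total dataset), 3 after 2% formaldehyde (2FA), 2 from cells kept in 5 µg/ml actinomycin D, which blocks transcription, for 4 h before fixation (ActD4), and 2 in which protein was digested and crosslinks were reversed before RNA was ligated (NPM, not mediated by protein). The mOPC libraries were 3 of 1FA and 2 of NPM. By the labels, replicate 1 of mESC NPM alone had a second sequencing run. Each cell type is represented by 1 line, and the replicates of a group are libraries from batches of cells at different passages. The libraries held from 251802 (ActD4) to 2832717 (mESC 1FA) interactions, all of them between transcripts and 25-kb DNA bins that the authors called significant on the pooled replicates of a group. A member listed at 0 in a group therefore had no such bin, which does not show that its RNA was absent. Levels are given as CPM, the interactions of an RNA per 1000000 interactions of its library. The summed level of 10 stem cell marker transcripts lay between 2899 and 3742 CPM in the mESC libraries, with Dppa5a listed at 0, and between 52.5 and 157 in the mOPC libraries. That of 10 oligodendrocyte progenitor markers lay between 3.97 and 94.3 in the mESC libraries and between 15934 and 20037 in the mOPC libraries.

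The RNAs below are among those on which the results turn: a C/D RNA with many interactions in mESC, the member most raised in mOPC, a C/D RNA with an RNA end inside its annotated gene, an H/ACA RNA with such an end, a regular H/ACA RNA, and a Cajal body RNA listed mostly at its own gene. Sequences were read from the mm10 genome on the strand of the gene. Capitals mark a C box (TGATGA) in the first 20 nt and a D box (CTGA) in the last 20 nt of C/D RNAs and of Scarna9, which is of the C/D kind, and the ACA in the last 6 nt of H/ACA RNAs. Snora44 held no ACA in its last 6 nt and so has no capitals.
Snord14e (chr9:40804748-40804837, plus strand): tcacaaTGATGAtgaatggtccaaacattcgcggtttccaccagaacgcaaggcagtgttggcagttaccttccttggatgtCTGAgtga
Snord67 (chr2:91596070-91596180, plus strand): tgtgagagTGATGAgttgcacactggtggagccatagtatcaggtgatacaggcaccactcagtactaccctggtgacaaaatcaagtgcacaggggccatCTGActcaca
Snord12 (chr2:167065276-167065365, plus strand): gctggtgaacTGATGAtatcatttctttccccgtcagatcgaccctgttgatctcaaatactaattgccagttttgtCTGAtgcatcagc
Snora44 (chr4:132309941-132310069, plus strand): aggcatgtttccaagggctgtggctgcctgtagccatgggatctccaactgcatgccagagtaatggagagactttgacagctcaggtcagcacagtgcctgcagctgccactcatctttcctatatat
Snora68 (chr8:70895759-70895889, minus strand): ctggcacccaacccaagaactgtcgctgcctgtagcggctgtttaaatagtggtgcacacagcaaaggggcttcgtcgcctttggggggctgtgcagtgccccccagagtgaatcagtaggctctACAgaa
Scarna9 (chr9:15326264-15326333, minus strand): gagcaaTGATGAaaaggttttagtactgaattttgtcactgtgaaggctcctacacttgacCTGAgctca

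The classes differed in length, with medians of 81 nt for C/D RNAs (64 to 238), 132 nt for H/ACA RNAs (127 to 196) and 265 nt for Cajal body RNAs (70 to 414). Of the 62 C/D RNAs, 60 held a D box in the last 20 nt and 43 a C box in the first 20 nt, while the stretches of the same length beside the genes held them in 9 and 0 cases. An ACA stood in the last 6 nt of 22 of 24 H/ACA RNAs and of 1 flank. The letters of the CAB box (TGAG) were found in 6 of 7 Cajal body RNAs, Scarna2 being the exception, but also in 6 of 7 of their flanks and in 49 of 62 C/D RNAs, so these 4 letters alone did not set the Cajal body RNAs apart. An annotated host gene on the same strand covered 86 members and 7 stood outside any, among them Snord13, Scarna2 and Scarna17.

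Most captured tags ended near the annotated end. The adapter is ligated to RNA 3′ ends, and the 3′ end of an RNA tag, placed 13 nt beyond the tag centre that the files give, lay within 5 nt of the annotated gene end for 74.1% ± 2.91 (SD, n = 3) of the members' tags in mESC 1FA, 73.8% ± 0.908 (n = 3) in 2FA, 72.9% ± 1.64 (n = 2) in ActD4, 76.7% ± 3.47 (n = 2) in mESC NPM, 73.3% ± 1.18 (n = 3) in mOPC 1FA and 70.3% ± 3.64 (n = 2) in mOPC NPM. In mESC 1FA the share was 77.2% for C/D, 58.2% for H/ACA and 52.5% for Cajal body RNAs. The lowest group mean was 68.0% for C/D RNAs (mOPC NPM), and 55% for H/ACA and 43.7% for Cajal body RNAs (both ActD4), so for the Cajal body RNAs fewer than 50% of tags ended there in ActD4 and in 2FA (46.2%). These shares depend on the tolerance, and within 2 nt they ran from 42.4% in mOPC 1FA to 61.2% in mESC NPM. Tags paired with the members' own loci ended there in 62.9% (mESC 1FA) to 73.6% (ActD4) of cases. Among the 78 members with at least 30 interactions, the most common tag end lay at the annotated end in 43 of 52 C/D, 17 of 20 H/ACA and 6 of 6 Cajal body RNAs.

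**Figure D1:**
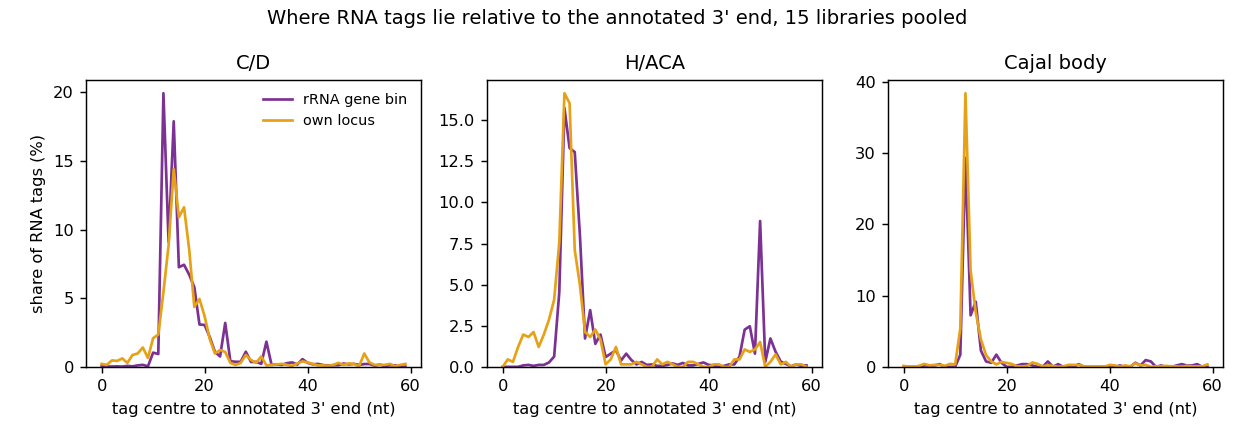
Share of RNA tags (%, y axis) by the distance in nt from the tag centre to the annotated 3′ end of the gene (x axis), for C/D, H/ACA and Cajal body RNAs, with tags paired to the bin of the ribosomal RNA genes and to the RNA's own locus drawn apart and 15 libraries pooled. Tags 60 nt or more from the end are not drawn, which leaves out 204 of 525 tags of Cajal body RNAs paired with the ribosomal RNA gene bin. Within the range drawn the highest values of each class stand near 13 nt, where a tag that ends with the annotated RNA has its centre, and Snora44 adds to the tags of H/ACA RNAs that end further inside.

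C/D RNAs whose tags ended elsewhere still ended just past a CTGA, while the 3 H/ACA RNAs of this kind did not end just past an ACA. In all 52 C/D RNAs with enough tags the most common end lay 1 to 6 nt after a CTGA. This is true of 17.6% of the 3087 positions searched in these genes, which leave out the first stretch of each. For 9 of them the CTGA was not at the annotated end: in Snord12, 86.7% of 279 tags ended at position 82 of the printed sequence, 8 nt before the end and just after its D box, and in Snord19, Snord21, Snord43, Snord68, Snord70, Snord80, Snord87 and Snord91a the most common end lay 6 to 19 nt before the annotated end. Of the 20 H/ACA RNAs, 14 ended 1 to 6 nt after an ACA (10.3% of 2213 positions searched in the same way do). Snora44, an intron product of Snhg12, was an exception, as 46.7% of its 615 tags ended at position 92, 37 nt before the annotated end and 12 nt after an ACA at positions 78 to 80. The most common ends of Snora57 and Snora61 lay at positions 65 and 61, with no ACA before them. Snord13, which helps to place an acetyl group on 18S ribosomal RNA, ended at position 105, 1 nt past its annotated end of 104 nt, in 73.7% of its 5228 tags.

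The members contacted chiefly the ribosomal RNA genes in the 1FA, 2FA and ActD4 libraries, and their own genes took a larger share in NPM. The mm10 assembly holds an incomplete ribosomal RNA gene copy on chromosome 17, in the bin chr17:39825001-39850000, and this bin took 83.5% ± 2.01 (n = 3) of the members' interactions in mESC 1FA, 84.1% ± 0.897 (n = 3) in 2FA, 74.9% ± 1.78 (n = 2) in ActD4 and 84.2% ± 9.80 (n = 3) in mOPC 1FA. In mESC NPM it took 31.6% ± 4.69 (28.2% and 34.9%), and in mOPC NPM 3.04% ± 2.33 (1.39% and 4.69%), so both NPM groups lay below every 1FA, 2FA and ActD4 library. With each pair of transcript and bin counted once the share was 44.5% in mESC 1FA, 46.4% in 2FA, 46.1% in ActD4 and 59.4% in mOPC 1FA, against 21.8% (mESC) and 7.14% (mOPC) after protein removal, so the size of the share depends on counting repeated contacts. Own loci, defined as the RNA's 25-kb bin and the bins next to it, took 3.88% ± 0.771 in mESC 1FA, 6.28% ± 1.14 in 2FA and 4.95% ± 0.554 in ActD4, against 48.7% ± 2.64 in mESC NPM and 94.1% ± 3.32 in mOPC NPM. In mOPC 1FA the own locus share was 12.8% ± 9.58, set by replicate 1 at 23.8%, while the other replicates gave 5.95% and 8.76%. Without replicate 1 it was 7.36%. Expressed as cis and trans, 91.4% ± 0.909 of the members' interactions were between chromosomes in mESC 1FA, 83.9% ± 0.591 in ActD4, and 82.7% ± 8.53 in mOPC 1FA. In the NPM libraries this was 49.4% ± 2.00 for mESC and 5.41% ± 3.01 for mOPC. The ribosomal RNA gene bin carried much of these values, and without it they were 72.7% in mESC 1FA, 47.8% in ActD4, 22.7% in mOPC 1FA and 27.1% in mESC NPM. A contact with that bin counts as trans unless the RNA's own gene lies on chromosome 17. For these contacts the split into cis and trans therefore follows where the assembly places the copy. The methods also name removal of blacklisted regions of mm10, and the authors' filtered set may lack this bin, as set out below. RNA and DNA tags within 1 kb of each other made up 93.7% of the mOPC NPM interactions, 47.9% of the mESC NPM interactions and 3.04% of the mESC 1FA interactions. The paper reports that such close pairs dominated all NPM interactions in both cell types and were a small part of the total datasets. The rise of close pairs was therefore not particular to the members. Their share in mESC NPM lay below the one the paper gives for all transcripts.

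**Figure D2:**
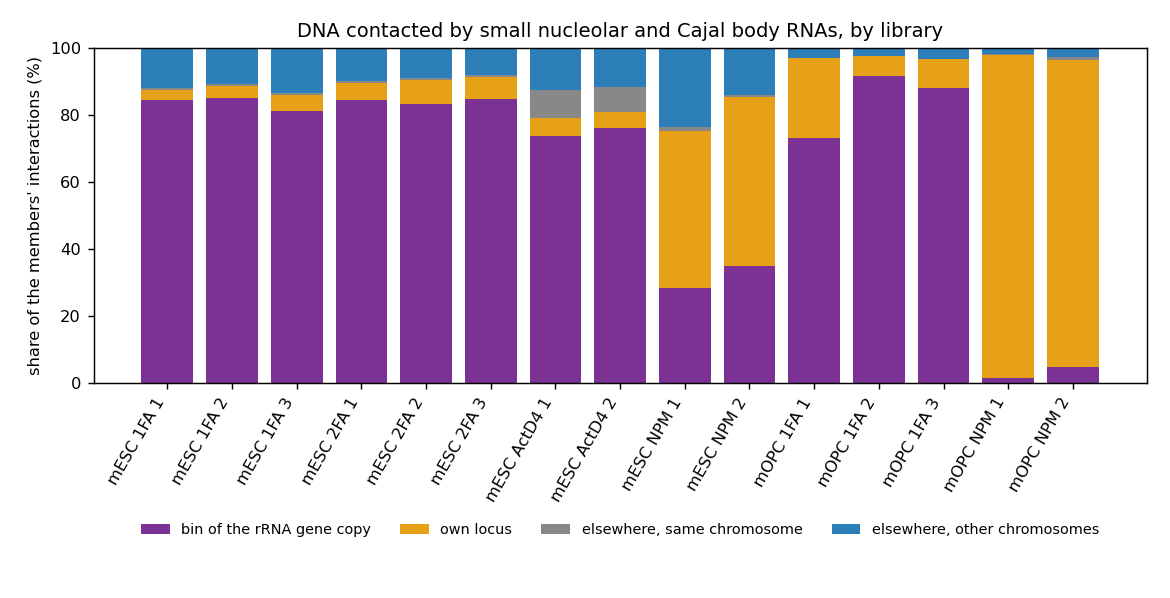
Share of the members' interactions (%, y axis) in each of 15 libraries (x axis, by group and replicate) that fell in the bin of the ribosomal RNA genes, at the RNA's own locus, elsewhere in cis or elsewhere in trans. The bin of the ribosomal RNA genes took 73.1% to 91.6% in the 1FA, 2FA and ActD4 libraries, and own loci took 91.8% and 96.5% in mOPC NPM.

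The classes differed in these shares. C/D RNAs gave 82.3% of interactions to the ribosomal RNA gene bin in mESC 1FA, 71.1% in ActD4, and 85.9% in mOPC 1FA. After protein removal the share was 37.8% in mESC, about that of their own loci (36.2%), and 5.07% in mOPC, where own loci took 89.1%. H/ACA RNAs gave it 90.8% in mESC 1FA, all interactions in ActD4, and 91.7% in mOPC 1FA. After protein removal they gave it 19% in mESC and 0 in mOPC, where all 8 listed H/ACA RNAs contacted only their own loci. Cajal body RNAs also went mainly to that bin in mESC 1FA (80.6%) and ActD4 (83.7%), but in mOPC 1FA they gave 38.8% to it and 41.9% to their own loci (27% and 57.3% in replicate 1, 43.3% and 34.3% in replicate 2, 46.2% and 34.1% in replicate 3, so replicate 1 sets the order of the means), and in NPM own loci took 86.8% (mESC) and 98.8% (mOPC). In mESC 1FA each of the 86 listed members had interactions with the ribosomal RNA gene bin and 48 had no other target. In mOPC NPM, 47 of 54 listed members had only their own locus and 5 still had the ribosomal RNA gene bin.

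This preference was shared by other annotated snoRNAs and few other transcripts. Among transcripts with at least 30 interactions in mESC 1FA, 61 of 61 members gave 50% or more of them to the ribosomal RNA gene bin, against 58 of 9719 other transcripts (0.597%). Of these 58, 52 were genes annotated as snoRNA or scaRNA under other names, all 52 such genes with that many interactions. In mOPC 1FA the counts were 42 of 45 members, 38 of 8087 other transcripts, among them 30 of 30 other annotated snoRNAs, and in mESC NPM 3 of 30 members and 6 of 6670. The members were a small part of each library but a large part of this bin: in mESC 1FA they made up 0.116% of all interactions and 24.2% ± 3.74 (n = 3) of those of the bin, in ActD4 0.403% and 36.9% ± 0.391 (n = 2), and in mOPC 1FA 0.0671% and 29.6% ± 2.22 (n = 3). In mESC NPM their part of the bin was 3.88% ± 3.12 (n = 2), while the share of all other transcripts' interactions that fell in the bin was 3.50%, compared with 0.309% in mESC 1FA.

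Within the ribosomal RNA gene copy the members' DNA tags were spread like those of other transcripts, which include the other annotated snoRNAs. In mESC 1FA 68.1% ± 2.84 of the members' tags lay in the part before 18S that carries the gene model Gm26917 (chr17:39843013-39846341), 12% ± 1.29 in 18S itself (chr17:39846354-39848202) and 19.5% ± 1.94 in the 625 bases after it, against 71.9%, 10.7% and 16.9% for all other transcripts. In mESC NPM the 18S part held 39.3% ± 17 of the members' tags and 40.6% of the others'. Of 62 C/D RNAs, 10 have a stretch of at least 12 nt complementary to 18S, as does 1 flank, and these RNAs placed 11% of their mESC 1FA contacts with the bin in 18S, against 11.8% for the other C/D RNAs. Snord14e, which is needed for 18S maturation, is among them with a stretch of 14 nt. Snord13 (623, 488 and 349) and Snord14e (247, 126 and 98 in the mESC 1FA replicates) made most of the 2390 mESC 1FA contacts of these RNAs with the bin. The other C/D RNAs include shorter matches, such as 11 nt in Snord82. The comparison therefore cannot show whether complementarity to 18S matters.

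**Figure D3:**
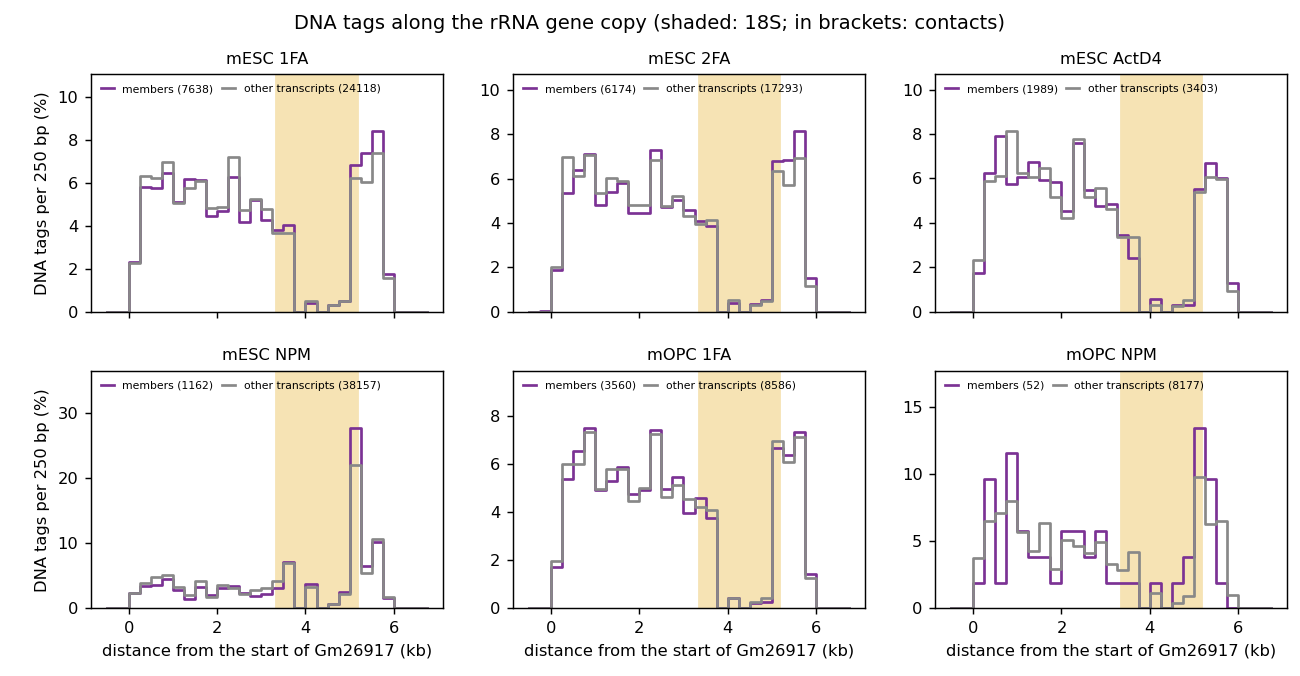
Share of DNA tags (%, y axis) along the ribosomal RNA gene copy (x axis, distance in kb from the start of Gm26917) for the members and for all other transcripts, by group, with 18S shaded. In mESC 1FA the lines run together and most tags lie before 18S, while in mESC NPM 39.3% of the members' tags and 40.6% of the other tags lie in 18S.

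Targets that were neither a member's own locus nor the ribosomal RNA gene bin of chromosome 17 were few bins, from 4 in mOPC NPM to 54 in ActD4. On other chromosomes they took 12% of the members' interactions in mESC 1FA, 9.04% in 2FA, 12% in ActD4, 18.7% in mESC NPM, 2.95% in mOPC 1FA and 2.38% in mOPC NPM, and on the RNA's own chromosome 8.14% in ActD4 and at most 1.01% in the other groups. In mESC 1FA they joined 20 members with 30 bins. Snord13, Snord14e and Snord83b together made 74.6% of these contacts in mESC 1FA, 78.8% in 2FA, 95.9% in ActD4 and 69.4% in mESC NPM, but 20.8% in mOPC 1FA and none in mOPC NPM. The bin most often contacted was chr11:109000001-109025000 around Gm11668, with 701 interactions of 21 members over all libraries (296 in mESC 1FA, 208 in 2FA, 24 in ActD4, 122 in mESC NPM, 51 in mOPC 1FA and 0 in mOPC NPM), and 91.3% of its DNA tags lay in 500 bases, chr11:109011501-109012000. A bin of chromosome 18 that holds a copy of the 5.8S ribosomal RNA gene (n-R5-8s1) took 199, of which 177 were in mESC NPM. It is counted among these other targets, so the share given above for the ribosomal RNA gene bin in mESC NPM leaves it out. A bin of chromosome 2 with no annotated gene (chr2:181900001-181925000) held 199, of which 156 were in mESC 1FA, and chr17:36225001-36250000 held 188. A pair of neighbouring bins over Sfi1 (chr11:3150001-3200000) held 212 and 169 interactions spread over their length. A bin in Cdk8 (chr5:146250001-146275000) held 147, of which 95.9% lay in 500 bases. The mitochondrial genome held 79, of which 21 were in 2FA and 58 in mESC NPM. Of 26 such bins searched, 3 shared a stretch of 20 identical bases with the ribosomal RNA gene copy of chromosome 17. The mitochondrial genome was left out of this search. That copy is incomplete, and the bin with the 5.8S gene shared no such stretch with it, so the search can miss ribosomal RNA gene sequence. Whether similarity to ribosomal DNA placed tags in the rest was not tested. No contact fell in bins of histone genes, which Cajal bodies are known to lie near, in any group, and bins holding the genes of other members took 41 of 808 such contacts in mESC NPM and 0 in the other 5 groups. The methods name removal of blacklisted regions of mm10, which were not marked here. Contacts in such regions may still be counted in the deposited tables. Whether the bins given above or the ribosomal RNA gene bin hold such regions was not tested. The paper's list of trans interactions found in both cell types gives Snord83b far fewer than its contacts with the ribosomal RNA gene bin here. Those were 234, 256 and 185 in mESC 1FA and 60, 94 and 119 in mOPC 1FA. The authors' filtered set may therefore lack this bin. The contact of Snord34, an intron product of Rpl13a, with a bin over Ksr2 (chr5:117700001-117725000) was unusual in being made by 1 member in 5 of 6 groups, with 30 interactions in all (3, 4, 0, 5, 6 and 12 in mESC 1FA, 2FA, ActD4, NPM and mOPC 1FA and NPM).

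Snord13 made the most contacts outside its own locus and the ribosomal RNA gene bin. Of its 2024 interactions in mESC 1FA, 551 went to 28 such other bins on 15 chromosomes. In ActD4 508 of 954 went to 52 bins on 11 chromosomes, and in mESC NPM 280 of 490 went to 15 bins on 12. In ActD4 its own chromosome 8 took 219 in 22 bins, at a median distance of 90.8 Mb from the gene (39.0 to 92.1 Mb). In mOPC 1FA 7 of 116 and in mOPC NPM 0 of 6 went elsewhere. The share elsewhere in the ActD4 group came almost wholly from this RNA, which made 93.9% of the members' other contacts there.

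**Figure D4:**
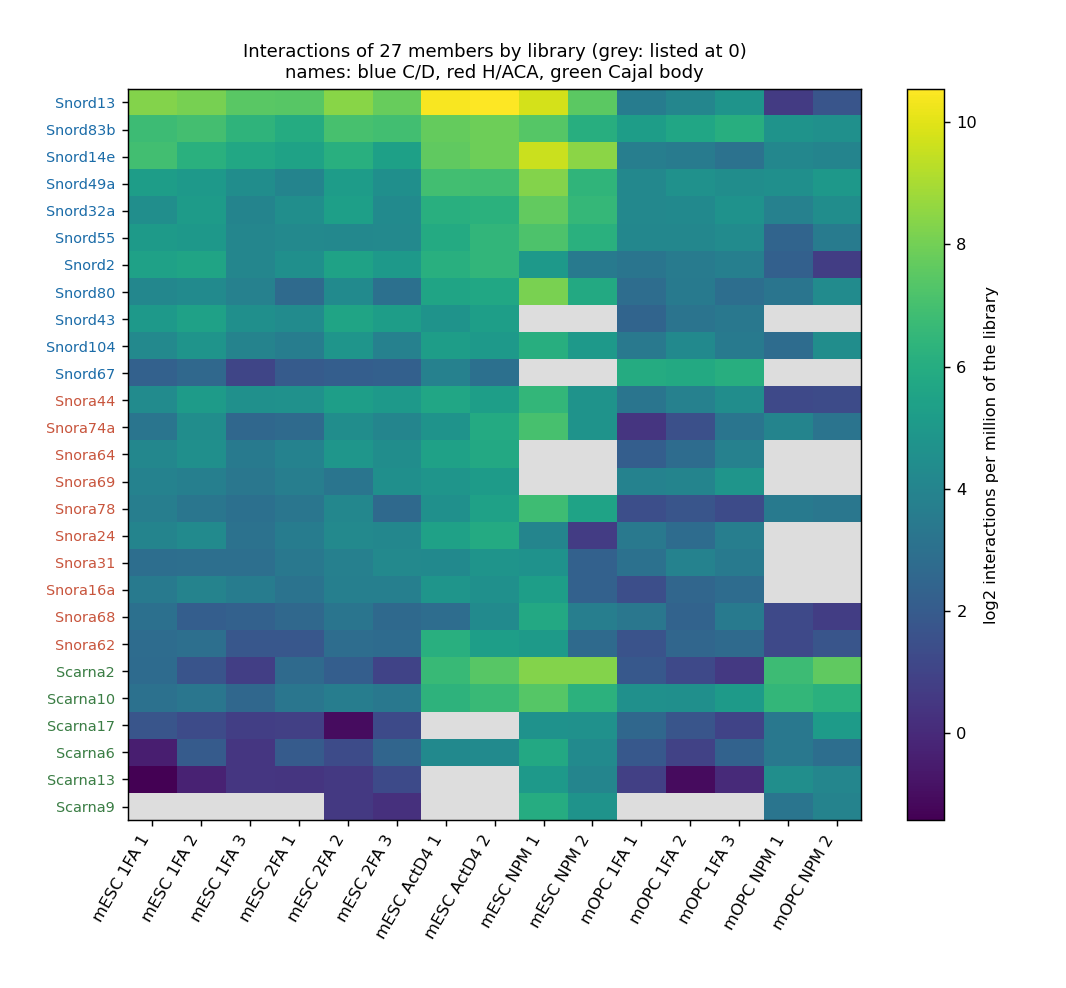
Level in CPM (log2 scale, colour) for 27 members (y axis, by class) in 15 libraries (x axis, by group and replicate), with members listed at 0 in grey. Snord13 stands out in the mESC libraries and Snord67 in mOPC 1FA, and Scarna13 and Scarna9 are highest in the NPM libraries.

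Compared at equal fixation, the members as a whole had 1161 ± 304 CPM in mESC 1FA and 671 ± 92.5 in mOPC 1FA (n = 3 each), and single members differed widely in both directions. Snord67, a guide for a spliceosomal RNA, had 4.87, 6.14 and 2.12 CPM in mESC 1FA and 61.1, 56.9 and 68.0 in mOPC 1FA. All mOPC libraries lay far above all mESC libraries, a log2 difference of 4.38 (SE 0.35), while its host Ckap5 differed by -0.30. Snora34 had 1.87, 4.51 and 3.18 against 13.1, 13.3 and 15.0 (log2 difference 2.62, SE 0.31), and Scarna10, which guides modification of a spliceosomal RNA, 8.25, 9.83 and 6.00 against 24.4, 23.2 and 34.0 (2.25, SE 0.25), again with no overlap between the groups. Snord13 showed the opposite, with 316, 275 and 180 CPM in mESC 1FA and 12.2, 16.6 and 27 in mOPC 1FA (-3.30, SE 0.30, limma adjusted p = 2.06e-05). Snord14e went the same way, with 121, 71.7 and 54.7 against 13.1, 11.9 and 8.50 (-2.30, SE 0.32). Snord43 and Snord35b fell by 1.44 and 1.55 on the log2 scale, and Snora43 was listed at 0 in mOPC 1FA and with 31 interactions in mESC 1FA. A member whose lower group alone would not have passed the filter on low counts entered the test only through its higher group, so the filter favoured a difference in that direction. This held for 3 of the 10 higher (Snord67, Snora34 and Snord110) and 5 of the 9 lower members called here, and for all members listed at 0 in a group, so these calls are a description of the listing.

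Of 58 members that passed the filter on low counts, 19 differed between mOPC 1FA and mESC 1FA by limma, 10 higher and 9 lower in mOPC, where 77.5% of all transcripts tested were called. Fewer molecules of an RNA and fewer contacts per molecule cannot be told apart in such counts. Of all transcripts 34.4% were higher and 43.0% lower. The share of members called lay below the share of all transcripts called, and the members had a median log2 difference of 0.00 against -0.22 for all transcripts, and 35 members were not tested. C/D RNAs had 5 higher and 7 lower of 44, H/ACA RNAs 4 and 2 of 13, and Scarna10 was the only Cajal body RNA tested. When libraries were scaled by their totals the median of all transcripts moved to -0.73, and the share of calls that were higher moved from 44.4% to 31.7%. With this scaling 3 members were higher and 19 lower, where 80.2% of all transcripts were called. Among the 5 higher members with the largest differences, Snord110 (1.32) and Snora68 (1.07) were then no longer called. The values in CPM overlapped between the groups for these and for Snord12, Snord33, Snord57 and Snora69, that is for 6 of the 10 higher members. They overlapped for none of the 9 lower. CPM is scaled by library totals, under which the members' median was -0.51, so higher members overlap more readily than lower ones. How often other transcripts overlapped was not counted. With no filter on low counts 39 of 91 members were called (75.9% of all transcripts), 16 higher and 23 lower, and with the ribosomal RNA gene bin left out 4 of 7 tested were called (77.9% of all transcripts), 1 higher and 3 lower.

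Limma called none of 60 members between 2FA and 1FA, where 0.0301% of all transcripts (3 of 9962, and 1149 at an unadjusted p under 0.05) were called, and the median log2 difference of the members was -0.11. With no filter on low counts 7 of 87 members were called, all lower in 2FA, where 13.5% of all transcripts were called. With the replicate number as a block, Snord14e alone was called, at -0.67 (SE 0.18, limma adjusted p = 0.0359), and 4.65% of all transcripts were. Its values were 121, 71.7 and 54.7 CPM in 1FA replicates 1 to 3 and 44.6, 69.8 and 41.7 in the 2FA replicates of the same numbers, lower in each of the 3 pairs.

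After actinomycin D the members took a larger part of the interactions that were left. They had 4031 ± 331 CPM (n = 2) against 1161 ± 304 in 1FA (n = 3), in libraries of 418781 and 251802 interactions against 2441619 to 2832717, so a larger share did not mean more interactions. Snord13 had 1380 and 1490 CPM in ActD4 (578 and 376 interactions) against 316, 275 and 180 in 1FA (844, 671 and 509), a log2 difference of 2.41 (SE 0.22, limma adjusted p = 5.79e-05). Scarna2, a guide for a spliceosomal RNA made from its own gene, rose from 6.75, 3.28 and 1.77 to 100 and 175 CPM (5.04, SE 0.54), and here the interactions themselves rose, from 18, 8 and 5 to 42 and 44. Scarna10 rose by 3.36 (SE 0.30). Snord12, which guides methylation of 28S ribosomal RNA, had 69.2 and 87.4 CPM against 9.75, 8.19 and 4.59 (3.27, SE 0.36), and Snora62 69.2 and 39.7 against 7.12, 7.78 and 3.53 (3.00, SE 0.42), all without overlap.

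By limma 50 of 62 members tested changed after actinomycin D, where 60.8% of all transcripts were called, and the directions were opposite to the bulk: 42 members were higher and 8 lower, while 19.4% of all transcripts were higher and 41.4% lower. The median log2 difference was 1.40 for the members and -0.31 for all transcripts. When scaled by totals that of all transcripts was -0.20, and 45 members were higher and 8 lower. With that scaling 60.7% of all transcripts were called, and 37.4% of those calls were higher. The 8 lower members, Snord8, Snord38a, Snord52, Snord59a, Snord110, Snord111, Snora17 and Snora43, were all listed at 0 in ActD4 and had 31 to 60 interactions in 1FA, so they entered the test only through the larger 1FA libraries. Of the 42 higher members, 41 would have passed the filter in 1FA alone, the exception being Scarna2. C/D RNAs had 30 higher and 6 lower of 46, H/ACA RNAs 10 and 2 of 14, and both Cajal body RNAs tested were higher. Nearly all of these calls rested on the ribosomal RNA gene bin: with it left out 7 members could be tested (60.6% of all transcripts were called), of which 4 were higher (Snord13, Snord32a, Snord49a and Snord83b) and 2 lower (Snord2 and Snord43). Both of the lower ones were listed at 0 outside that bin in ActD4. With the bin included Snord2 had a log2 difference of 1.13 (limma adjusted p = 0.0541), so its direction turned with this choice.

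After protein removal the Cajal body RNAs were higher in both cell types and the snoRNAs were divided. Most of these RNAs entered the test only through the NPM libraries where they are high (5 of 6 called in mESC and 3 of 4 in mOPC, Scarna10 being the exception), so their values are a description. In mESC the Cajal body RNAs had 583 CPM in NPM against 17.4 in 1FA, and in mOPC 303 against 39.2. Scarna2 had 324 and 319 CPM in mESC NPM and 108 and 197 in mOPC NPM, far above 6.75, 3.28 and 1.77 in mESC 1FA and 3.62, 2.37 and 1.5 in mOPC 1FA. The log2 differences were 5.92 (SE 0.45) in mESC and 5.03 (SE 0.47) in mOPC. Its own gene took 123 of 141 and 144 of 194 of its interactions in the mESC NPM libraries and 138 of 138 and 225 of 235 in the mOPC NPM libraries. The ribosomal RNA gene bin took 14 and 47 in mESC NPM, against 11, 8 and 3 in mESC 1FA. Scarna13 rose by 3.95 (SE 0.48) in mESC and 3.25 (SE 0.44) in mOPC, and all of its NPM interactions were at its own gene. Scarna9 was listed at 0 in both 1FA groups and had 64.4 and 26.3 CPM in mESC NPM and 9.43 and 15.1 in mOPC NPM, again all at its own gene. Scarna6 (3.57, SE 0.61) and Scarna17 (2.69, SE 0.38) rose in mESC, where 6 of the 7 Cajal body RNAs could be tested. In mOPC Scarna10 had 0.79 (SE 0.20), and Scarna6 (0.60) and Scarna17 (1.62) did not pass the test.

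For the C/D and H/ACA RNAs the cell types gave different counts. In mESC 17 C/D and 5 H/ACA RNAs rose and 14 and 3 fell, of 46 and 15 tested, where 21.8% of all transcripts rose and 27.7% fell. All of these falls entered the test only through 1FA. Snord22 (2.92, SE 0.46), Snord34 (2.91, SE 0.40) and Snord82 (2.81) rose most in the C/D class. Snord14e went from 121, 71.7 and 54.7 to 771 and 351 CPM (2.20, SE 0.34). In mOPC no C/D RNA rose and 22 of 35 fell, and 1 H/ACA RNA rose (Snora78, from 2.71, 3.32 and 2.50 to 11 and 10.1 CPM, tested only through NPM) and 9 of 11 fell. Of all transcripts 28.9% rose and 26.6% fell there. Of these falls, 17 of the 22 C/D and all 9 H/ACA RNAs entered the test only through 1FA. Of the 17 members that fell in mESC, 15 were listed at 0 in NPM, among them Snord43 (255 interactions in 1FA), Snord68 (151), Snora64 (136), Snora69 (101) and Snord111 (60), and the values of the other pair, Snord73a and Snord47, overlapped between the groups. In mOPC 12 of the 31 that fell were listed at 0 in NPM. They included Snord67, with 391 interactions in 1FA, Snora69 (122), Snord47 (71), Snora31 (71) and Snora24 (65). Snord13 went from 12.2, 16.6 and 27 to 1.57 and 3.36 CPM in mOPC (-3.50, SE 0.47), and Snora44 fell by 3.16 on the log2 scale (SE 0.41), both tested only through 1FA. In mESC Snord13 did not pass the test, with 867 and 186 CPM in NPM against 316, 275 and 180.

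Over all classes, limma called 45 of 67 members in mESC (28 higher, 17 lower), where 49.5% of all transcripts were called (21.8% higher and 27.7% lower), and 36 of 52 in mOPC (5 higher, 31 lower), where 55.5% were (28.9% higher and 26.6% lower). In mESC 5 of the 28 higher and 17 of the 17 lower members, and in mOPC 4 of the 5 higher and 26 of the 31 lower, entered the test only through the group where they were high. The median log2 difference of the members was 0.71 in mESC and -1.43 in mOPC, that of all transcripts -0.01 and 0.17, and the difference between the cell types was not tested. Scaling by totals moved the medians of all transcripts to 0.51 and 0.95. The share of calls that were higher moved from 44% to 76.0% and from 52.1% to 89.1%. The members then had 33 higher and 15 lower in mESC and 10 higher and 23 lower in mOPC. With this scaling 54.8% and 66.4% of all transcripts were called. When the ribosomal RNA gene bin was left out, 26 of 28 members tested rose and 1 fell in mESC and 13 of 21 rose and 1 fell in mOPC, where 51.2% and 55.2% of all transcripts were called. Most of these members had too few 1FA interactions outside the bin and entered the test only through NPM. Snord110 in mESC and Snora78 in mOPC, for example, had no 1FA interaction outside the bin. The rises with the bin left out are therefore a description.

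**Figure D5:**
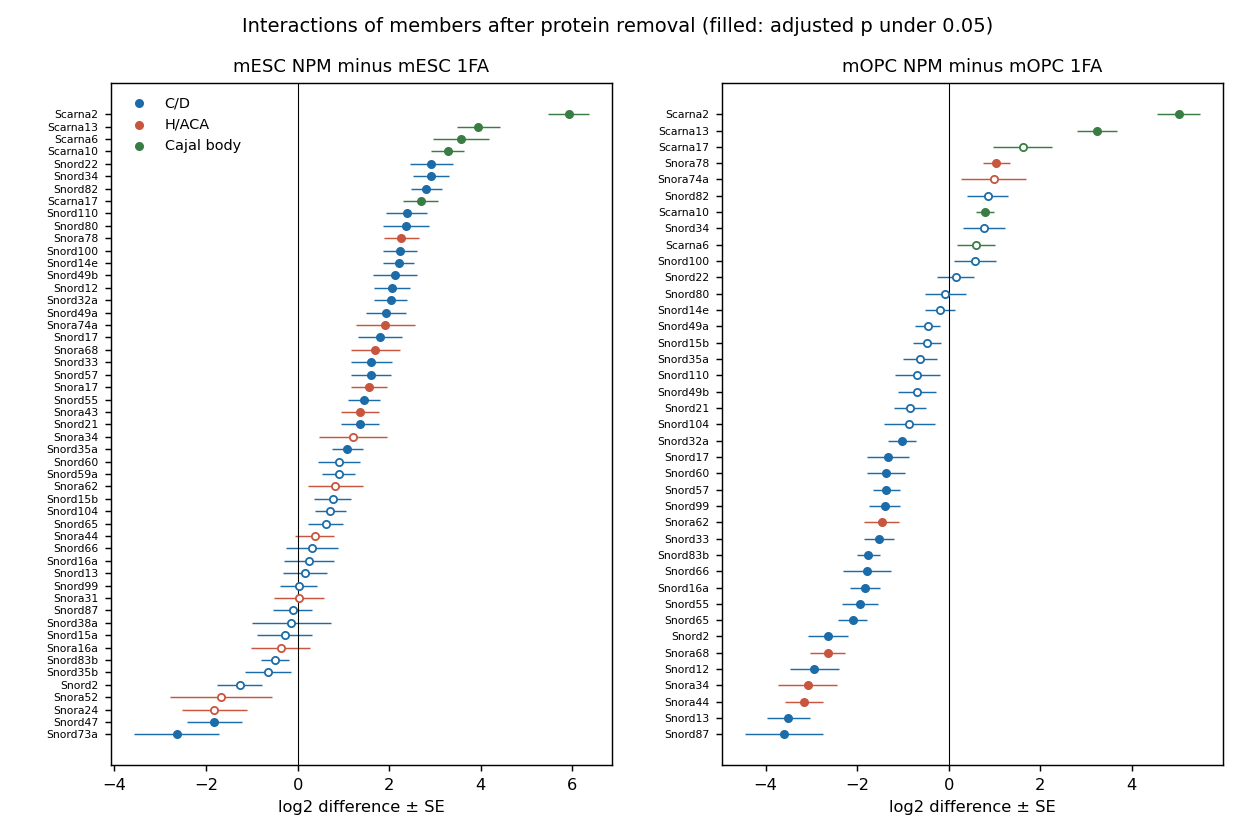
Log2 difference in interactions between NPM and 1FA libraries (x axis, points with bars of ± SE) for the 51 members of mESC (left) and the 39 of mOPC (right) that were listed in both groups, ordered by size and coloured by class, with filled points for a limma adjusted p under 0.05. Scarna2 and Scarna13 stand highest in both cell types, while in mOPC every filled C/D point lies below 0.

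Without protein the cell types differed in 1 direction only. Limma called 19 of 33 members between mOPC NPM and mESC NPM, all lower in mOPC and 10 of them tested only through mESC NPM, where 51.2% of all transcripts were called, 30.3% higher and 20.9% lower. Snord13 had 867 and 186 CPM in mESC NPM and 1.57 and 3.36 in mOPC NPM (-6.76, SE 0.80), and Snord14e 771 and 351 against 17.3 and 16 (-4.55, SE 0.38), with wide gaps between the groups. Snord12 (-3.82), Snora44 (-3.68) and Snord55 (-3.22) followed. Of these 5 only Snord14e would have passed the filter in mOPC NPM alone, so the values of the other 4 are a description. None of 6 Cajal body RNAs was called, with log2 differences from -1.48 to 0.14. The mESC NPM libraries differed from each other, at 5646 and 2209 CPM, and without mESC NPM replicate 1 the calls were 6 of 33 members (39.5% of all transcripts), without mESC NPM replicate 2 29 of 46 (39.4%), without mOPC NPM replicate 1 6 of 47 (26% of all transcripts) and without mOPC NPM replicate 2 6 of 48 (27.2%), each leaving a group of 1 library that is assumed to vary like the other group. By the labels, mESC NPM replicate 1 alone had a second sequencing run, and whether this bears on the difference between the mESC NPM libraries was not tested. When scaled by totals, the median of all transcripts moved from 0.20 to -0.18 and the share of calls that were higher from 59.2% to 45.3%. With this scaling 27 members were lower, where 53.6% of all transcripts were called.

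The members were set beside their host genes, with no test of the difference. Between mOPC 1FA and mESC 1FA the 48 tested members with a tested host had a median log2 difference of 0.07 and their hosts, counted once for each member, -2.06, and 43 of the 48 lay above their host. Snora69 was called at 1.07 and its host Rpl39 had -4.71, and Snord12 was called at 0.97 and its host Zfas1 had -3.72, although the values in CPM of both members overlapped between the groups. After actinomycin D the medians were 1.38 and 0.03, with 40 of 52 members above their host. After protein removal they were 0.32 and 0.49 in mESC (26 of 55 above) and -1.36 and 1.18 in mOPC (4 of 35 above). In mOPC NPM minus mESC NPM they were -1.90 and -1.11 (3 of 25 above). Of all members called lower, 17 of 17 (mESC), 26 of 31 (mOPC) and 10 of 19 (between the NPM groups) entered the test only through their higher group. The same held for 5 of 28 members called higher in mESC and 4 of 5 in mOPC. The filter favoured such differences, so the medians and counts set beside the hosts in the NPM comparisons are a description. Several members share a host and so a value, and an RNA tag within a member's gene was given to 1 gene only.

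Transcripts of the proteins that build these particles were counted for comparison, from a list of 26 genes of the C/D and H/ACA cores, assembly factors and Cajal body proteins. Between mOPC 1FA and mESC 1FA 15 of 22 tested were lower and 1 higher (43.0% and 34.4% of all transcripts), including Nop58 of the C/D core (-0.72, SE 0.11), the dyskerin gene Dkc1 (-0.90, SE 0.22), the nucleolar chaperone Nolc1 (-1.34, SE 0.22) and the coilin gene Coil (-1.55, SE 0.30). Between 2FA and 1FA none of 22 was called. After actinomycin D 9 of 23 were higher (19.4% of all transcripts), such as the fibrillarin gene Fbl (1.29, SE 0.29), and 8 lower (41.4%), such as Nop58 (-0.996, SE 0.13). After protein removal 5 of 23 were higher and 3 lower in mESC, where 21.8% and 27.7% of all transcripts were, and 3 of 21 higher and 5 lower in mOPC, where 28.9% and 26.6% were, with Nop56 (1.87, SE 0.27 and 1.71, SE 0.44), the host of Snord57 and Snord110, and Nolc1 (2.42, SE 0.33 and 1.94, SE 0.31) higher in both. Between mOPC NPM and mESC NPM 9 of 22 were lower and none higher (20.9% and 30.3% of all transcripts), among them Nop58 (-1.27, SE 0.20) and Dkc1 (-1.61, SE 0.31). These values count interactions of the genes' transcripts with chromatin and not protein.

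Of the C/D RNAs of imprinted clusters, only Snord116, Snord107 and Snord64 have genes of these names in the annotation used. None of 17 annotated Snord116 genes and not the single Snord107 gene had an interaction in any library. Snord64 of the same region had 7, all in mESC 1FA (0, 4 and 3 in replicates 1 to 3) and all with the ribosomal RNA gene bin. Tags that map to several places were removed, so copies of equal sequence would not be listed. Whether this applies to the Snord116 genes was not tested, and no difference within the region is drawn from these counts.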

How the data were processed

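Per the labels and the methods, the authors extracted RNA and DNA tags with TagDust, removed ribosomal RNA with RNAdust and PCR duplicates with FastUniq, and aligned tags to mm10 with BWA, keeping mapping quality 37. RNA tags were assigned by strand to GENCODE M14 genes. The deposited tables hold interactions of transcripts with 25-kb DNA bins whose p-value in a binomial test on pooled replicates, adjusted by Benjamini-Hochberg, was under 0.05, so their totals are not sequencing depth. The submitters' processing notes name CASAVA 1.8 and BWA 0.7.15-r1140.

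Interactions per transcript and library were counted from these deposited tables (exact copies once), and symbols came from GENCODE M21. Counts were scaled by TMM, log2-transformed (prior count 0.5) and tested with limma 3.58.1 (R 4.3.3) and Benjamini-Hochberg over all transcripts with 10 interactions in as many libraries as the smaller group holds and 15 in total. The code was tested on simulated data. Python 3.11.15, pandas 2.3.3, numpy 2.4.6, matplotlib 3.10.9 and samtools 1.23.1 were used. The members and lists were chosen with earlier results of these data known. Named genes were up to 10 C/D, 10 H/ACA and 5 Cajal body RNAs with most interactions (mean over groups), and up to 5 members in each direction of a comparison by size of log2 difference. Protein genes were named where called, up to 4 a comparison, and not by size. Others were chosen after their values were seen. Replicate numbers paired mESC 2FA with 1FA, whose same-numbered libraries deviated together (correlations 0.39, 0.23 and 0.41 over 8547 transcripts). The p-values measure the spread between libraries of cell batches at different passages. Which pairs are listed was decided on pooled replicates, so this spread can be smaller than between libraries called one by one. Alternatives covered the scaling, filter, weights, copies, distinct bins, replicate block and single libraries. The sequence of the most captured member is not reported here.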

Additional observations from a re-analysis of the deposited data

Results flagged for a closer look

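After protein removal 3 members moved in opposite directions in the cell types, each with all NPM libraries above all 1FA libraries in mESC and below them in mOPC. Snora68 differed by 1.69 in mESC and -2.65 in mOPC on the log2 scale. Snord12 differed by 2.07 and -2.93, and Snord55 by 1.45 and -1.93. All 3 entered the mOPC test only through the 1FA libraries where they were high. The filter on low counts thus favoured a lower value in mOPC NPM, and the mOPC values are a description. The difference between the cell types was not tested. With the ribosomal RNA gene bin left out none of the 3 had enough interactions to be tested in mOPC. In that cell type Snord55 had 5, 1 and 2 interactions at its own locus with 1FA, against 7 and 14 with NPM, so the lower level in mOPC NPM was that of its contacts with the ribosomal RNA gene bin.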

How the results depend on the processing

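Of the values of named members in the comparisons where they were called, 978 kept their direction and their side of the threshold, 102 kept the direction and were no longer called, and 4 reversed. These were, with the ribosomal RNA gene bin left out, Snord14e after actinomycin D (-0.69) and Snord32a (1.01) and Snord83b (0.69) in mOPC NPM minus 1FA, and with exact copies counted Snord32a in that comparison (0.071). The cause was not tested. Leaving out that bin, which was chosen after seeing the data, leaves fewer members to test, and 4 (mOPC 1FA minus mESC 1FA), 6 (ActD4), 27 (mESC NPM), 14 (mOPC NPM) and 9 (mOPC NPM minus mESC NPM) were called, where 77.9%, 60.6%, 51.2%, 55.2% and 50.8% of all transcripts were. In NPM minus 1FA of both cell types most members called without the bin were tested only through NPM, so those calls are a description. With no filter 39 of 91 members were called between the 1FA groups and 7 of 87 between 2FA and 1FA (75.9% and 13.5% of all transcripts). With distinct bins counted few members could be tested, and all were called: 3 of 3 between the 1FA groups and in the 2FA, ActD4 and NPM comparisons of mESC (95.3%, 76.9%, 92.6% and 93.5% of all transcripts) and 2 of 2 between the NPM groups (99.6%), where voom weights gave 29 of 33 (56.4%). Libraries of a group share their bins: in mESC 1FA 181 of 197 pairs of member and bin were in every library. Counts of distinct bins therefore vary little within a group, and the calls on them are a description. Leaving out single libraries gave 6 to 29 calls between the NPM groups. With the replicate number as a block 1 member was called between 2FA and 1FA, and the counts of members called in the other comparisons stayed within 1.5 times. Scaling by totals also kept these counts within 1.5 times but moved their split. It went from 10 higher and 9 lower to 3 and 19 between the 1FA groups. In mOPC NPM minus 1FA it went from 5 and 31 to 10 and 23. With that scaling 80.2% and 66.4% of all transcripts were called.

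The trans share in mESC 1FA, 2FA, ActD4 and NPM was 90.4%, 86.6%, 80.9% and 34.9% with exact copies counted, 89.2%, 86.0%, 88.2% and 42.8% without the most captured member, 72.7%, 56.8%, 47.8% and 27.1% without the ribosomal RNA gene bin, and 79.1%, 74.2%, 69.5% and 55.7% with each pair of transcript and bin counted once. In mOPC 1FA it was 22.7% without that bin and 65.4% with pairs counted once, and in mOPC NPM 13.5% with pairs counted once. The own locus share in the same 4 mESC groups was 5.08%, 8.54%, 8.48% and 63.9% with copies and 4.79%, 7.78%, 7.15% and 55.3% without the most captured member, and 3.04% within 1 kb in mESC 1FA. The ribosomal RNA gene bin took 81.8% (2FA), 72.2% (ActD4) and 20.9% (mESC NPM) with copies, 86.8%, 87.1% and 90.9% in mESC 1FA, 2FA and ActD4 without the most captured member, and 44.5%, 46.4%, 46.1%, 21.8%, 59.4% and 7.14% in the 6 groups with pairs counted once. Tags ending at the annotated end made up, in the 6 groups, 58.5%, 58.7%, 59.4%, 61.2%, 42.4% and 55.5% within 2 nt and 82.4%, 81.6%, 81.5%, 90.1%, 84.3% and 82.0% within 10 nt. With copies they were 74.8% (2FA), 81.7% (mESC NPM), 74.5% (mOPC 1FA) and 80.7% (mOPC NPM), and without the most captured member 69.5%, 68.6%, 62.3% and 70.9% in mESC 1FA, 2FA, ActD4 and mOPC 1FA.

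Significance was called on pooled replicates, so libraries of a group share their bins. Interactions below the authors' threshold are not counted here, and small libraries such as ActD4 can list fewer members for that reason alone. Tags that map to several places were removed, and the assembly holds only part of a ribosomal RNA gene. Contacts with the repeated ribosomal RNA genes are therefore counted incompletely. Tags from any of the repeats that match the assembly copy also fall together in its bin, which can raise its count against bins of unrepeated genes. Per the methods, the authors' test set the chance of a bin by how many bins an RNA contacted, and repeats did not enter. The shares given for the ribosomal RNA gene bin are not corrected for this, and the size of the effect was not tested.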
